A study of Mus musculus with 23 samples.

Results

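T cell receptor (TCR) transcripts of the 6 trametinib libraries of the series were compared between D11 and D4. The columns labelled Tram-D11 and Tram-D4 were taken, 3 libraries for each day, out of 23 libraries in all. The model is a mouse melanoma line called NIL with the Nras Q61R mutation, grown in syngeneic mice per the labels, which had been exposed to ultraviolet radiation to raise its mutation load. All libraries compared share that tumour background. The D11 and D4 groups differ by the labels only in the sampling day, and both were treated with Trametinib. The other libraries were treated with BGB-283, with both drugs (combination) or with no drug (control). From which event the days are counted is not stated. The labels do not say whether the libraries came from separate animals, so the spread between them may not be one between animals. The p-values measure the spread between libraries only. Any 2 of the 6 libraries shared between 1 and 18 TRB clonotypes, and what this means for their origin was not tested.

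A TCR is made of an alpha chain (TRA) and a beta chain (TRB). Each developing T cell joins a V and a J segment (for TRB also a D segment) with random bases at the joint, and the joint encodes the CDR3 loop, which touches the presented peptide. T cells that descend from the same cell carry the same receptor, so the size distribution of receptors in a tissue describes clonal expansion. Trametinib inhibits MEK1 and MEK2, the kinases that activate ERK; the same cascade acts downstream of the TCR itself. BGB-283 (lifirafenib) inhibits RAF kinases. A clonotype here means one CDR3 amino acid sequence of a chain with its V and J segments, and its share is its counts divided by all counts of that chain in the library. The RNA was bulk, so more cells of a clone and more TCR RNA per cell cannot be told apart.

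The labels name the tissue as a melanoma line, and the transcripts measured are those of alpha-beta T cells. Gamma and delta chains, which the labels also name, were not analysed here. Total counts were 398907, 123093 and 256216 in D11 replicates 1 to 3, against 185226, 310152 and 488105 in D4 replicates 1 to 3, so the days overlapped in depth. TRB held 153839, 59029 and 108098 counts in 2194, 931 and 1533 clonotypes at D11, against 85945, 144779 and 193649 counts in 733, 1456 and 1657 clonotypes at D4. TRA held 245068, 64064 and 148118 counts in 2101, 777 and 1462 clonotypes at D11, against 99281, 165373 and 294456 counts in 743, 1125 and 1635 clonotypes at D4. The lowest count listed is 3, so a clonotype at 0 is one that was not listed.

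The largest clonotypes held less of the repertoire at D11 than at D4 in both chains. The 10 largest TRB clonotypes held 29.5%, 18.6% and 19.7% of TRB counts in D11 replicates 1 to 3, against 35.0%, 39.4% and 36.4% in D4 replicates 1 to 3. All D11 libraries lay below all D4 libraries, with means of 22.6% ± 6.002 at D11 and 36.9% ± 2.21 at D4 (SD, n = 3 each) and a difference of -14.3 percentage points (exact two-sided permutation test, p = 0.1). With 3 against 3 libraries, 0.1 is the smallest p that this test can give. In TRA the 10 largest held 27.1%, 23.1% and 29.6% at D11, against 34.0%, 44.4% and 41.3% at D4. Again the days did not overlap, with means of 26.6% ± 3.28 at D11 and 39.9% ± 5.35 at D4 (SD, n = 3 each) and a difference of -13.3 percentage points (exact permutation, p = 0.1).

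The single largest TRA clonotype held 4.71%, 3.27% and 6.23% of TRA counts at D11, against 9.39%, 11.03% and 12.1% at D4. These ranges did not overlap either, and the means were 4.74% ± 1.48 at D11 and 10.8% ± 1.37 at D4 (SD, n = 3 each; difference -6.10 points, exact permutation, p = 0.1). For the largest TRB clonotype the values were 10.9%, 7.04% and 7.03% at D11, against 14.5%, 11.2% and 7.002% at D4. Here the days overlapped, since the largest TRB clonotype of D4 replicate 3 was as small as those of D11 replicates 2 and 3 (difference -2.58 points, exact permutation, p = 0.4). That difference was -0.796 points without D4 replicate 1 and -4.53 points without D4 replicate 3. Of the 14 measures of clone size, diversity and CDR3 features compared between the days, 3 had no overlap: the share of the 10 largest in each chain and that of the largest TRA clonotype. None of the 14 could pass a threshold of 0.05 in this design.

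**Figure D1:**
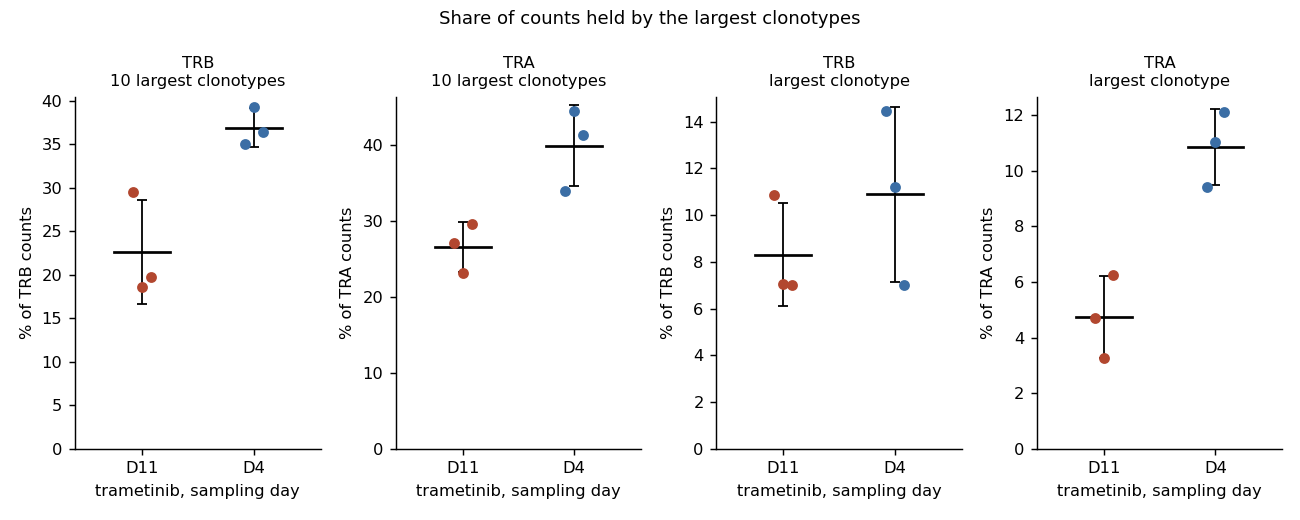
Share of counts held by the 10 largest clonotypes and by the largest one, in percent of the chain's counts, for D11 (red) and D4 (blue) trametinib libraries. Points are libraries, horizontal bars means and error bars SD (n = 3); the 10 largest TRB clonotypes held at most 29.5% at D11 and at least 35.0% at D4.

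Beyond the 10 largest, it took 60, 107 and 152 TRB clonotypes to make up the upper 50% of counts at D11, against 43, 24 and 21 at D4. Every D11 library thus needed more clonotypes than every D4 library. The days overlapped nearer both ends of the TRB ranking: the 2 largest clonotypes held 14.99% in D11 replicate 1 and 12.8% in D4 replicate 3, and the 500 largest held 89.4% in D11 replicate 2 and 87.7% in D4 replicate 3. For TRA the numbers were 35, 74 and 86 at D11, against 41, 15 and 16 at D4, and D11 replicate 1 fell among the D4 libraries. TRB clonotypes of 1% or more numbered 11, 5 and 7 at D11 and held 30.6%, 14.8% and 17.4% of counts, against 9, 10 and 18 clonotypes with 34.1%, 39.4% and 47.5% at D4. The share held by these large TRB clonotypes did not overlap between the days, whereas their number did. TRA clonotypes of 1% or more held 37.9%, 25.5% and 28.6% at D11, against 33.0%, 49.9% and 53.6% at D4, and here D11 replicate 1 lay above D4 replicate 1. TRB clonotypes under 0.1% held 45.3%, 25.7% and 43.5% at D11, against 16.8%, 30.7% and 31.1% at D4, with overlap.

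**Figure D2:**
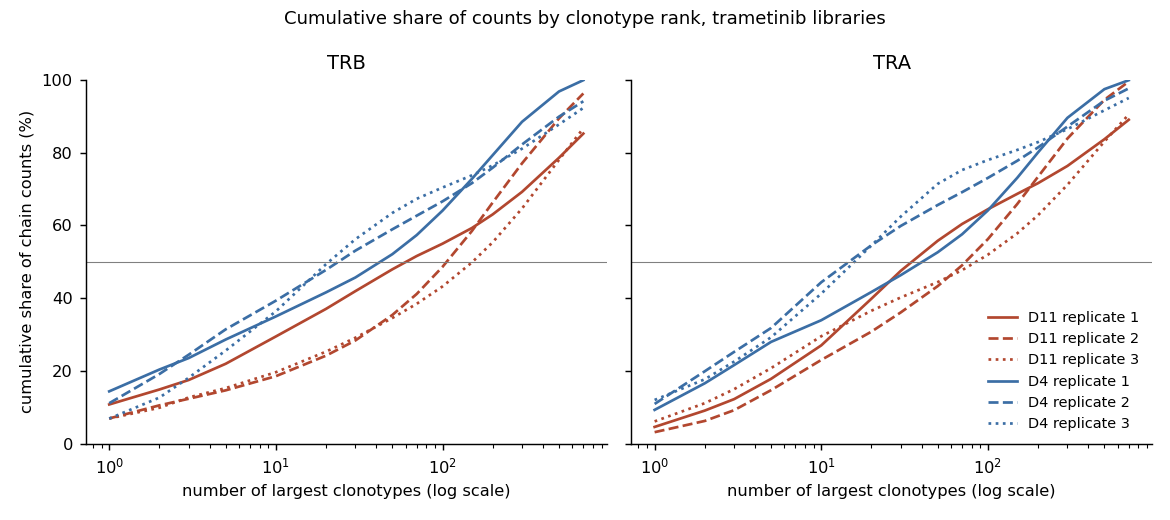
Cumulative share of counts (percent, vertical axis) held by the largest clonotypes, against the number of clonotypes on a log scale, for each D11 (red) and D4 (blue) trametinib library; the grey line marks 50%. In TRB the 3 D11 curves cross 50% at 60 or more clonotypes and the 3 D4 curves at 43 or fewer.

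Clonality, which is 1 minus the Shannon entropy over its maximum and runs to 1 for a single clone, was 0.221, 0.123 and 0.137 for TRB at D11, against 0.210, 0.273 and 0.278 at D4. The means were 0.160 ± 0.0535 at D11 and 0.254 ± 0.0378 at D4 (SD, n = 3 each), but D11 replicate 1 lay above D4 replicate 1 (exact permutation, p = 0.2). TRA clonality was 0.243, 0.137 and 0.185 at D11, against 0.206, 0.294 and 0.330 at D4, with the same overlap (exact permutation, p = 0.2). Simpson clonality, the square root of the summed squared shares, gives the large clonotypes more weight and did not overlap in either chain. It was 0.133, 0.0937 and 0.0922 for TRB at D11, against 0.171, 0.165 and 0.138 at D4 (exact permutation, p = 0.1). For TRA it was 0.107, 0.0890 and 0.111 at D11, against 0.147, 0.174 and 0.169 at D4 (exact permutation, p = 0.1). The entropy index of TRB in estimated molecules did not overlap either, at 0.178, 0.102 and 0.113 at D11, against 0.187, 0.234 and 0.245 at D4 (exact permutation, p = 0.1), whereas that of TRA overlapped (exact permutation, p = 0.2). On the entropy index, D11 replicate 1, the deepest of its day, was the most clonal D11 library in both chains.

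The number of clonotypes was not separable between the days on the deposited counts. With every library thinned to 59029 TRB counts, 2132, 931 and 1526 TRB clonotypes were found at D11, against 732, 1424 and 1606 at D4. The ranges overlapped almost whole (log2 difference 0.29, exact permutation, p = 0.6). TRA clonotypes at 64064 counts gave 1983, 777 and 1447 at D11, against 741, 1097 and 1519 at D4 (log2 difference 0.28, exact permutation, p = 0.7). The picture depended on the unit: in estimated molecules (each count divided by 20 and rounded up) thinned to equal numbers, 1263, 931 and 1173 TRB clonotypes were found at D11, against 648, 912 and 902 at D4, with no overlap (log2 difference 0.46, exact permutation, p = 0.1). TRA gave 1056, 777 and 1043 clonotypes at D11, against 639, 736 and 756 at D4, also without overlap (log2 difference 0.42, exact permutation, p = 0.1). The divisor of 20 was a chosen value. Among TRB clonotypes of 20 counts or fewer, the part at exactly 20 ran from 9.96% in D11 replicate 1 to 46.9% in D11 replicate 2. Clonotypes of 1 estimated molecule made up 50.8%, 44.5% and 39.7% of TRB clonotypes at D11, against 35.1%, 48.4% and 43.3% at D4.

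Most of the largest TRB clonotypes were built with TRBJ2-5, a J segment of the cluster next to the second constant region. TRBJ2-5 was used by the largest TRB clonotype of 5 of the 6 libraries. In D11 replicates 1 and 2 it was TRBV16 with TRBJ2-5 (13 residues; 10.9% and 7.04%), and in D11 replicate 3 TRBV12-1 with TRBJ2-3 (12 residues, 7.03%). In D4 replicates 1 and 3 it was TRBV3 with TRBJ2-5 (14 residues; 14.5% and 7.002%), and in D4 replicate 2 TRBV16 with TRBJ2-5 (13 residues, 11.2%). The same segments did not mean the same receptor: the TRBV16 loops of D11 replicates 1 and 2 differed at 5 residues, and the TRBV3 loops of D4 replicates 1 and 3 at 2. The loop of D11 replicate 1 differed from that of D4 replicate 2 at 3 residues, and that of D11 replicate 2 differed from it at 4.

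The largest TRA clonotypes used different segments in each library. At D11 they were TRAV5D-4V5N-4 with TRAJ23 (13 residues, 4.71%), TRAV7N-6 with TRAJ27 (12 residues, 3.27%) and TRAV7D-2 with TRAJ37 (14 residues, 6.23%) in replicates 1 to 3. At D4 they were TRAV8-2 with TRAJ11 (13 residues, 9.39%), TRAV16D/DV11V16N with TRAJ31 (14 residues, 11.03%) and TRAV7D-2 with TRAJ11 (13 residues, 12.1%). Joined names stand for copies of the duplicated mouse TRAV locus that the authors' file does not tell apart.

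No V or J segment passed the test for a change of its share of counts. The test was edgeR's quasi-likelihood test on counts summed per segment, with Benjamini-Hochberg adjustment and a threshold of 0.05. The calls were 0 of 24 TRBV (0.0%), 0 of 12 TRBJ (0.0%), 0 of 118 TRAV (0.0%) and 0 of 41 TRAJ segments (0.0%). The fit took its spread from all 23 libraries in 8 groups. Unadjusted p was under 0.05 for 0 TRBV, 0 TRBJ, 8 TRAV and 0 TRAJ segments. With the trametinib libraries fitted alone, it was so for 5 of 23 TRBV, 2 of 12 TRBJ, 10 of 93 TRAV and 4 of 41 TRAJ segments. Again 0 of each kind passed after adjustment. DESeq2 called 1 TRBV and 1 TRAV segment, both at or near 0 in most libraries, and 0 of the others. Over all segments tested the median log2 difference was 0.12 for TRBV, 0.18 for TRBJ, 0.47 for TRAV and 0.33 for TRAJ.

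The 5 most used TRBV segments were TRBV16, TRBV3, TRBV19, TRBV29 and TRBV12-2, and the days overlapped for each of them. TRBV16 held 22.4%, 19.4% and 12.1% of TRB counts at D11, against 11.1%, 21.4% and 17.9% at D4 (log2 difference 0.09, SE 0.667, edgeR adjusted p = 0.969). TRBV3 held 7.13%, 11.8% and 7.70% at D11, against 20.4%, 11.4% and 13.5% at D4; D11 replicate 2 lay within the D4 range (log2 difference -0.77, SE 0.697, edgeR adjusted p = 0.837). TRBV19, TRBV29 and TRBV12-2 had log2 differences of -0.38, 0.51 and 0.15.

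Among TRBV segments the smallest unadjusted p belonged to TRBV15, TRBV22 and TRBV4. TRBV15 held 2.00%, 1.61% and 3.18% at D11, against 8.66%, 10.7% and 1.37% at D4 (log2 difference -1.61, SE 0.848, edgeR adjusted p = 0.837). Its high values at D4 came with 1 clonotype each, of 5.98% in replicate 1 and 8.01% in replicate 2, and without clonotypes of 1% or more it held 2.00%, 1.61% and 3.18% at D11, against 2.68%, 2.71% and 1.37% at D4. TRBV4 held 7.31%, 2.51% and 1.23% at D11, against 2.18%, 0.751% and 1.10% at D4, and its 2 clonotypes of 1% or more in D11 replicate 1 made up 5.48% (log2 difference 1.46, edgeR adjusted p = 0.837). TRBV22 was listed in D11 replicate 1 alone, at 0.0982%.

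Of the 24 TRBV segments, 6 had count shares that did not overlap between the days (25.0%), all with D11 above D4: TRBV13-1, TRBV13-2, TRBV14, TRBV20, TRBV31 and TRBV5. None passed the edgeR test (adjusted p = 0.837 each). With each clonotype counted once, TRBV14 and TRBV20 overlapped (log2 differences 0.24 and 0.02), and the others of the 6 did not. All shares of a chain add up to the whole, and TRB clonotypes of 1% or more held less at D11. Whether the 6 segments rose beyond that difference was not tested. Random day labels leave no overlap with a frequency of 0.1, and the 25.0% was not tested against it. TRBV13-2, a member of the V beta 8 family, held 6.86%, 5.42% and 6.21% at D11, against 4.05%, 5.27% and 3.43% at D4. TRBV14 held 3.90%, 2.87% and 3.37% at D11, against 2.41%, 0.947% and 1.03% at D4.

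TRBJ2-5 was the most used J segment of TRB at D4 and TRBJ2-7 at D11. TRBJ2-5 held 19.6%, 18.4% and 12.9% of TRB counts at D11, against 28.5%, 31.1% and 24.3% at D4. No D11 library reached the lowest D4 library, and the means were 16.99% ± 3.596 at D11 and 27.9% ± 3.41 at D4 (SD, n = 3 each; log2 difference -0.72, SE 0.554, edgeR adjusted p = 0.959). TRBJ2-7 held 21.6%, 19.2% and 19.9% at D11, against 16.4%, 10.6% and 14.9% at D4, again without overlap (log2 difference 0.54, SE 0.580, edgeR adjusted p = 0.959). With the trametinib libraries fitted alone, edgeR adjusted p was 0.0784 for TRBJ2-5 and 0.240 for TRBJ2-7. TRBJ2-1 was the third of 12 TRBJ segments without overlap (25.0%), at 11.3%, 12.8% and 13.3% at D11, against 9.86%, 8.74% and 11.2% at D4. TRBJ2-3 and TRBJ1-1, also among the 5 most used, overlapped between the days.

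**Figure D3:**
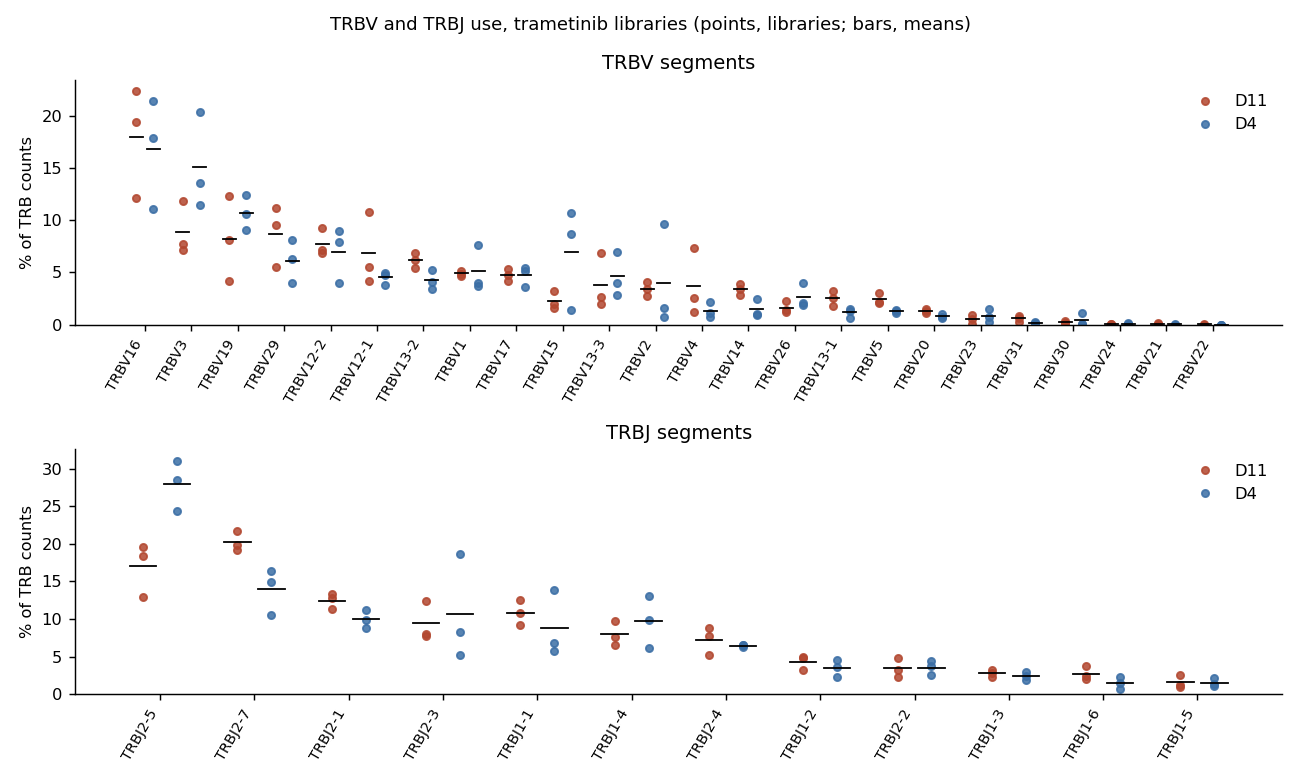
Share of TRB counts (percent) of each TRBV segment (upper panel) and TRBJ segment (lower panel), ordered by mean share, in D11 (red, left) and D4 (blue, right) trametinib libraries. Points are libraries and bars are means (n = 3); TRBJ2-5 lies at 19.6% or less at D11 and at 24.3% or more at D4.

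Split by size, TRBJ2-5 separated the days in its large clonotypes and not in the rest. TRBJ2-5 clonotypes of 1% or more held 12.5%, 8.18% and 2.84% of TRB counts at D11, against 18.9%, 20.9% and 16.04% at D4. TRB clonotypes of that size with any J segment also held less at D11, at 30.6%, 14.8% and 17.4%, against 34.1%, 39.4% and 47.5% at D4. Whether TRBJ2-5 fell beyond that general difference was not tested. The remaining TRBJ2-5 clonotypes held 7.10%, 10.3% and 10.1% at D11, against 9.596%, 10.2% and 8.27% at D4, so these ranges overlapped. TRBJ2-7 overlapped between the days in both parts: its clonotypes under 1% held 12.7%, 19.2% and 15.9% at D11, against 13.3%, 10.6% and 9.75% at D4, and its larger ones 8.96%, 0% and 4.02% at D11, against 3.16%, 0% and 5.15% at D4. Among the 10 largest TRB clonotypes of each library, TRBJ2-5 was used by 7 of 30 at D11 and 13 of 30 at D4, and TRBJ2-7 by 7 of 30 at D11 and 2 of 30 at D4. TRBV16 was used by 7 of 30 on both days.

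Counting each clonotype once takes clone size out of the comparison. On that scale TRBJ1-6 was the 1 call among 12 TRBJ segments (8.33%), at 3.37%, 3.76% and 2.74% of TRB clonotypes at D11, against 3.00%, 1.92% and 1.75% at D4 (log2 difference 0.65, SE 0.203, edgeR adjusted p = 0.0181). D11 replicate 3 lay below D4 replicate 1, so the days overlapped. The call depended on the libraries included. EdgeR adjusted p was 0.163 without D11 replicate 1, 0.0803 without D11 replicate 2, 0.153 without D4 replicate 2 and 0.208 without D4 replicate 3. It was 0.00488 without D11 replicate 3 and 0.00277 without D4 replicate 1, and 0.122 with the trametinib libraries fitted alone. The log2 difference stayed between 0.50 and 0.82 when 1 library was left out. On counts TRBJ1-6 held 1.98%, 3.72% and 2.37% at D11, against 2.34%, 1.49% and 0.642% at D4 (log2 difference 0.85, edgeR adjusted p = 0.959).

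No other segment passed with each clonotype counted once, with edgeR calls of 0 of 20 TRBV (0.0%), 0 of 56 TRAV (0.0%) and 0 of 40 TRAJ segments (0.0%). Unadjusted p was under 0.05 for 1 TRBV segment, TRBV13-2, at 7.38%, 6.55% and 6.26% of TRB clonotypes at D11, against 4.23%, 5.70% and 4.10% at D4. It did not overlap between the days (log2 difference 0.52, SE 0.218, edgeR adjusted p = 0.465), and with the trametinib libraries alone it passed (adjusted p = 0.0385). Shares of clonotypes did not overlap for 6 of 24 TRBV segments (25.0%), 0 of 12 TRBJ segments (0.0%), 11 of 143 TRAV segments (7.69%) and 1 of 41 TRAJ segments (2.44%). TRBJ2-5 was among those that overlapped, at 10.5%, 10.7% and 11.6% of TRB clonotypes at D11, against 13.5%, 12.1% and 11.2% at D4.

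In TRA, 12 of 143 TRAV segments (8.39%) and 4 of 41 TRAJ segments (9.76%) had count shares without overlap. Both percentages were near the frequency of 0.1 at which random day labels leave no overlap. A lack of overlap in a single TRA segment is therefore no evidence of a change by itself. The 5 most used TRAV segments were TRAV7D-2, TRAV16D/DV11V16N, TRAV13D-1, TRAV10 and TRAV7D-3, all with overlap. TRAV7D-2 held 9.14%, 9.82% and 16.4% of TRA counts at D11, against 6.99%, 10.3% and 29.6% at D4 (log2 difference -0.41, edgeR adjusted p = 0.983). In D4 replicate 3, 7 TRAV7D-2 clonotypes of 1% or more held 23.03% of TRA counts.

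TRAV7N-5 had the smallest unadjusted p of the TRAV segments (0.0103). It held 0.520%, 3.59% and 4.01% of TRA counts at D11, against 0.360%, 0.158% and 0.294% at D4 (log2 difference 3.32, SE 1.20, edgeR adjusted p = 0.544). Most of the share in D11 replicates 2 and 3 came from the same clonotype, TRAV7N-5 with TRAJ9, at 2.70% and 3.13%. TRAV7N-5 clonotypes under 1% held 0.520%, 0.882% and 0.873% at D11, against 0.360%, 0.158% and 0.294% at D4, still without overlap. The next smallest were TRAV14-1V14D-3/DV8V14N-1V14N-3, listed at 0.0457% or less in D11 libraries and at 0 in D4 libraries, and TRAV8D-2, listed at 0 in D11 libraries and at up to 0.178% in D4 libraries.

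The 5 most used TRAJ segments were TRAJ37, TRAJ21, TRAJ23, TRAJ22 and TRAJ11, and the days overlapped for all of them. TRAJ11 held 3.70%, 1.44% and 0.342% at D11, against 11.1%, 0.437% and 17.7% at D4 (log2 difference -2.42, SE 1.34, edgeR adjusted p = 0.932). D4 replicates 1 and 3 were high through clonotypes of 1% or more, which held 9.39% and 17.0%, and D4 replicate 2 had none of that size. TRAJ13 held 2.34%, 0.774% and 1.26% at D11, against 0.677%, 0.302% and 0.346% at D4, without overlap (log2 difference 1.73, edgeR adjusted p = 0.932). TRAJ18 held 1.45%, 2.98% and 1.53% at D11, against 0.641%, 0.685% and 0.575% at D4, also without overlap (log2 difference 1.65, SE 0.953, edgeR adjusted p = 0.932).

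**Figure D4:**
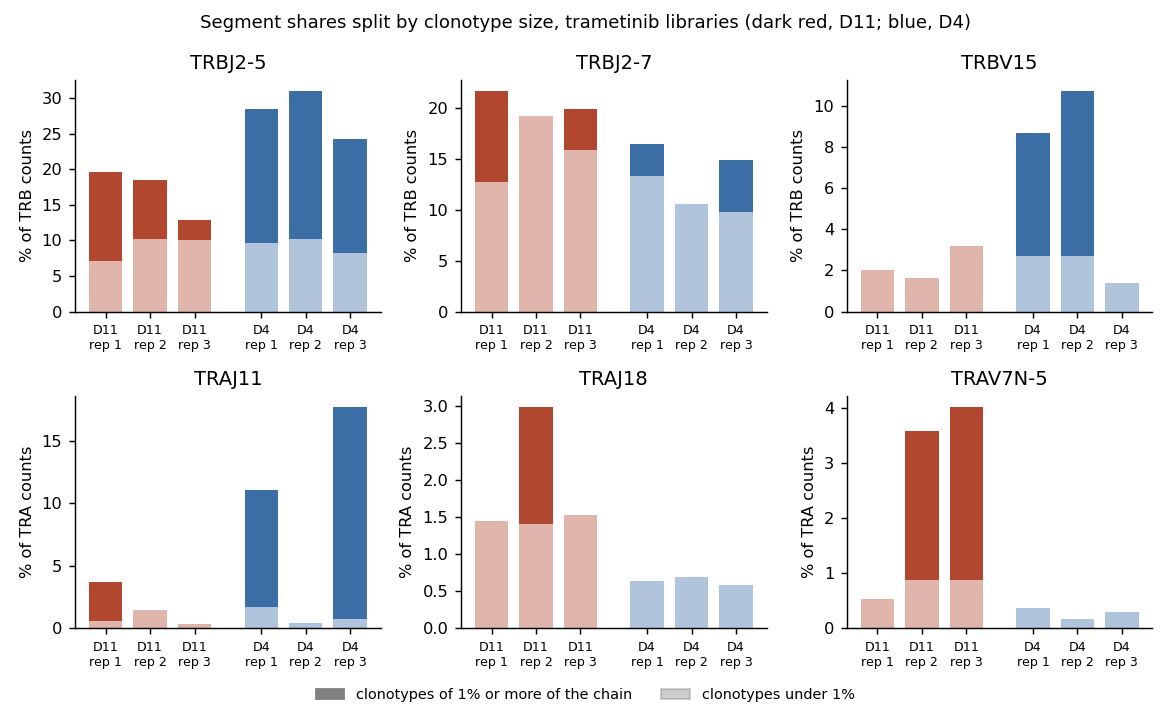
Share of the chain's counts (percent) of 6 segments in each trametinib library, D11 (red, left) and D4 (blue, right), split into clonotypes of 1% or more (dark) and under 1% (light). TRBJ2-5, TRBV15 and TRAJ11 owe their D4 peaks to the dark part; for TRAJ18 the light part alone reached at least 1.403% at D11 and at most 0.685% at D4.

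TRAJ18 is the J segment of invariant natural killer T (iNKT) cells, which respond to glycolipids on CD1d and carry an almost fixed alpha chain of a TRAV11 copy joined to TRAJ18. That pair held 0.721%, 1.77% and 0.878% of TRA counts at D11, against 0.211%, 0.303% and 0.322% at D4. All D11 libraries lay above all D4 libraries, with means of 1.12% ± 0.566 at D11 and 0.279% ± 0.0597 at D4 (SD, n = 3 each). The most abundant CDR3 of the pair, 15 residues long, made up most of it, with 0.686%, 1.70% and 0.700% at D11, against 0.211%, 0.223% and 0.264% at D4. Joined to TRAV11N it was 1 of 2 TRA clonotypes listed in all 6 libraries. TRAJ18 with other V segments also lay higher at D11, at 0.728%, 1.21% and 0.648%, against 0.430%, 0.382% and 0.253% at D4.

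Of the 15 TRA clonotypes listed in 4 or more libraries, 5 had shares that did not overlap between the days (33.3%). D11 lay above D4 for 3 of them, TRAV11N with TRAJ18, TRAV14-2V14N-2 with TRAJ22 and TRAV8-1V8D-1 with TRAJ22, and below D4 for 2, TRAV9N-2 with TRAJ37 and TRAV12D-2 with TRAJ24. The iNKT pair (any TRAV11 copy with TRAJ18) held 0.129% to 0.524% in BGB-283 D11 libraries and 0.0766% to 0.710% in BGB-283 D4 libraries. Combination libraries ranged from 0.427% to 0.972% at D11 and from 0.317% to 1.13% at D4, and control libraries from 0% to 0.304% at D11 and from 0% to 0.209% at D4. The difference between treatments was not tested. TRAV1 joined to TRAJ33, the near-fixed alpha chain of the MAIT cells that sense microbial riboflavin metabolites, was listed at 0 in all 6 trametinib libraries.

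In mice iNKT cells pair this alpha chain mostly with V beta 8 (TRBV13-1, TRBV13-2 and TRBV13-3), V beta 7 (TRBV29) or V beta 2 (TRBV1), which conventional T cells use too. These 5 segments together held 22.5%, 27.0% and 29.0% of TRB counts at D11, against 19.8%, 21.2% and 22.7% at D4, with D11 replicate 1 within the D4 range. As a share of TRB clonotypes they held 32.5%, 34.5% and 34.7% at D11, against 28.0%, 29.7% and 29.1% at D4, without overlap. Taken singly, TRBV13-1 and TRBV13-2 did not overlap in that share, whereas TRBV13-3, TRBV29 and TRBV1 did. On counts the log2 differences were 1.13 for TRBV13-1, 0.54 for TRBV13-2, -0.27 for TRBV13-3, 0.51 for TRBV29 and -0.05 for TRBV1. V beta 8 alone made up 13.1%, 12.1% and 12.3% of clonotypes at D11, against 9.69%, 10.4% and 8.21% at D4, also without overlap, while its counts overlapped at 12.1%, 10.6% and 14.9% at D11, against 9.55%, 13.6% and 6.97% at D4.

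Other V beta classes, chosen because endogenous superantigens delete them in some mouse strains, overlapped on the scale of counts. V beta 5 (TRBV12-1 and TRBV12-2) averaged 14.6% ± 3.405 of TRB counts at D11 and 11.5% ± 2.17 at D4, and V beta 11 (TRBV16) 17.95% ± 5.27 at D11 and 16.8% ± 5.24 at D4 (SD, n = 3 each). V beta 3 (TRBV26) averaged 1.58% ± 0.564 at D11 and 2.66% ± 1.14 at D4, and V beta 12 (TRBV15) 2.26% ± 0.817 at D11 and 6.91% ± 4.91 at D4 (SD, n = 3 each). As shares of TRB clonotypes, V beta 12 did not overlap, at 3.05%, 1.93% and 2.87% at D11, against 3.68%, 3.85% and 3.08% at D4, and V beta 5, 11 and 3 did. The J cluster next to the first constant region (TRBJ1) held 31.3%, 31.5% and 27.8% of TRB counts at D11, against 29.7%, 32.6% and 20.04% at D4, and the TRBJ2 cluster the rest. In clonotypes the TRBJ1 cluster held 32.1%, 30.5% and 29.5% at D11, against 28.5%, 29.2% and 27.2% at D4, and the days were just apart.

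No CDR3 feature separated the days when all listed clonotypes were counted once. On that basis the mean TRB CDR3 length was 13.95, 14.14 and 13.95 residues at D11, against 14.05, 13.90 and 13.93 residues at D4 (difference 0.052 residues, exact permutation, p = 0.5). TRA loops averaged 13.6 ± 0.0374 residues at D11 and 13.6 ± 0.0490 residues at D4 (SD, n = 3 each; exact permutation, p = 0.8). With counts under 20 set to 0, TRA loops averaged 13.599, 13.612 and 13.598 residues at D11, against 13.577, 13.523 and 13.569 residues at D4, which did not overlap (difference 0.047 residues, exact permutation, p = 0.1). Long TRB loops of 16 residues or more made up 13.2%, 15.7% and 14.2% of clonotypes at D11, against 14.9%, 12.2% and 12.3% at D4. The most common TRB length was 14 residues in every library, at 29.3%, 30.8% and 29.5% of clonotypes at D11, against 28.5%, 32.8% and 31.6% at D4.

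The middle of the loop, without its first 4 and last 4 residues, is the part that meets the peptide. Its mean hydropathy on the Kyte-Doolittle scale, on which positive values are hydrophobic, was -0.959 ± 0.0487 for TRB at D11 and -0.932 ± 0.0766 at D4 (SD, n = 3 each; exact permutation, p = 0.8). For TRA it was -1.21 ± 0.00776 at D11 and -1.17 ± 0.0487 at D4 (SD, n = 3 each; exact permutation, p = 0.4). Net charge per loop (lysine and arginine minus aspartate and glutamate) averaged -0.335 ± 0.0315 for TRB at D11 and -0.351 ± 0.00703 at D4 (exact permutation, n = 3 each, p = 0.6). TRA charge averaged -0.246 ± 0.0311 at D11 and -0.281 ± 0.0422 at D4 (exact permutation, n = 3 each, p = 0.4). All of these ranges overlapped.

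Nearly every TRB clonotype was private to its library. Of 8391 TRB clonotypes in the 6 libraries, 8291 were listed in 1 library, 89 in 2, 9 in 3 and 2 in 4. Libraries of different days shared on average 0.582% of their clonotypes (relative to the geometric mean of the 2 numbers) and libraries of the same day 0.603% (difference -0.0201 points, exact permutation over the 20 assignments of libraries to days, p = 0.8). Pairs shared between 1 and 18 TRB clonotypes. Of 7513 TRA clonotypes, 7254 were in 1 library and 2 in all 6, with 2.14% shared between days and 2.42% within days (exact permutation, p = 0.2). Clonotypes seen also under another treatment were 7.20% of the D11 and 8.11% of the D4 TRB clonotypes, and 16.1% of the D11 and 16.8% of the D4 TRA clonotypes.

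The 2 TRB clonotypes listed in 4 trametinib libraries both used TRBJ2-5 with loops of 13 residues. TRBV2 with TRBJ2-5 held 0.0624%, 0.113% and 0.0407% at D11, against 0%, 0% and 5.76% at D4. TRBV12-2 with TRBJ2-5 held 0%, 0% and 0.401% at D11, against 1.19%, 0.678% and 0.335% at D4. The same receptor was thus large in some libraries and rare or unlisted in others. The next by number of libraries were TRBV13-2 with TRBJ1-1, TRBV16 with TRBJ1-4 and TRBV19 with TRBJ2-4, in 3 libraries each.

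Among TRA clonotypes, TRAV14D-3/DV8V14N-3 with TRAJ22 was the second one in all 6 libraries, at 0.0027% to 0.0796% at D11 and 0.0429% to 0.0987% at D4. TRAV13D-1 with TRAJ5, in 5 libraries, held 3.10%, 0.0859% and 3.85% at D11, against 0%, 0.166% and 0.262% at D4. TRAV9N-2 with TRAJ37, also in 5, held 0.125%, 0% and 0.0250% at D11, against 0.488%, 0.230% and 2.92% at D4, without overlap. TRAV14-2V14N-2 with TRAJ22 held 0.238%, 0.289% and 0.392% at D11, against 0%, 0.164% and 0.176% at D4, without overlap.

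Some large clonotypes differed from each other by a single residue. Among the 133 TRB clonotypes of 0.5% or more in any library, 8 pairs had the same V, J and loop length and differed at 1 residue, 4 of them within a library. In TRA there were 35 such pairs among 151 clonotypes, 15 of them within a library. Most of these TRA pairs were combinations among a few TRAV7D-2 loops, joined to TRAJ37 or TRAJ5, that varied at the same place. In D4 replicate 3, a TRBV2-TRBJ2-5 pair held 5.76% and 1.96%, and a TRBV16-TRBJ2-3 pair 2.12% and 2.10%. Another set spanned both days: TRBV19 with TRBJ2-7 and 14 residues, carrying glycine, threonine and glycine in a row at the same place of the loop. Members of it held 2.95% and 1.08% in D11 replicate 3 and 0.7996% in D11 replicate 2, against 4.08% in D4 replicate 3. All receptors of that form, a set chosen after its values were seen, held 0.159%, 1.00% and 4.13% of TRB counts at D11, against 0.225%, 0.562% and 4.65% at D4, and the form was listed in 16 of the 17 libraries of the other treatments.

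Whether the lower share of the 10 largest clonotypes at D11 differed from the change under the other treatments was tested on the difference itself, with day labels permuted within each treatment. The trametinib change in TRB was -14.3 points, against 13.8 points under the combination, a difference of -28.1 points (exact permutation over 400 assignments, p = 0.01, adjusted over 12 tests p = 0.12). In TRA it was -13.3 points, against 7.0 points under the combination (difference -20.3 points, exact permutation, p = 0.035, adjusted p = 0.21). Neither passed after adjustment. Combination libraries held 46.0%, 52.9% and 67.9% of TRB counts in their 10 largest clonotypes at D11, against 49.6%, 31.0% and 44.9% at D4.

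Against BGB-283 the differences were -18.8 points in TRB (exact permutation, p = 0.105, adjusted p = 0.3) and -16.7 points in TRA (exact permutation, p = 0.125, adjusted p = 0.3). Against the control they were -5.42 points in TRB (exact permutation over 200 assignments, p = 0.585, adjusted p = 0.78) and -3.23 points in TRA (exact permutation, p = 0.79, adjusted p = 0.948). In the control, which had 2 libraries at D11, the TRB share was 45.1% and 45.7% at D11, against 46.2%, 57.7% and 59.0% at D4. The change with time was thus also negative without drug, and a trametinib change that differs from it was not detected. All 3 trametinib D11 libraries lay below the lowest of the other libraries in TRB, a combination D4 library at 31.0%, an ordering that was not tested. For clonotypes at equal counts, unadjusted p ranged from 0.12 to 0.99 over the 6 comparisons.

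**Figure D5:**
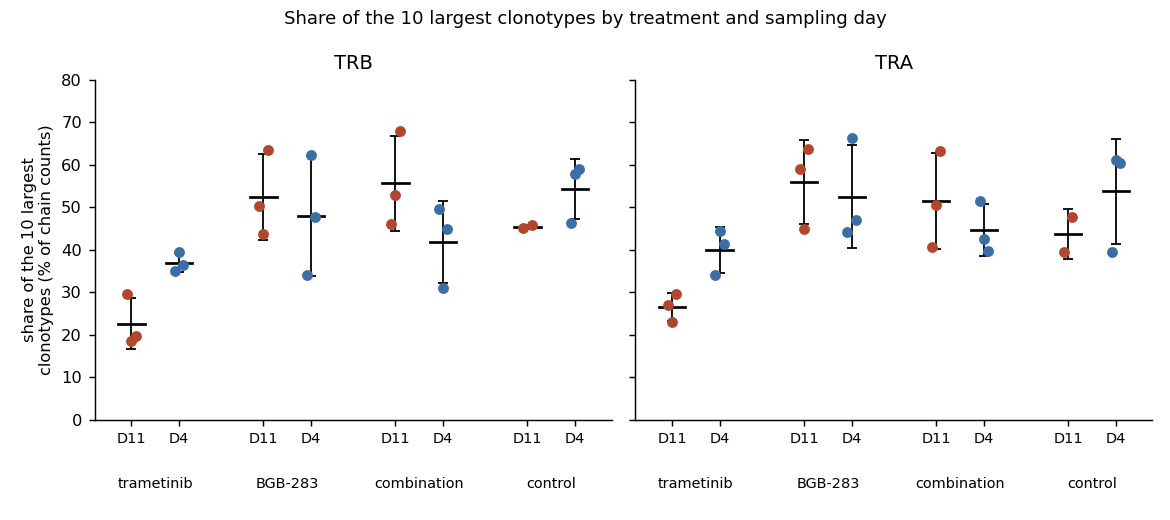
Share of the 10 largest clonotypes (percent of the chain's counts) in D11 (red, left) and D4 (blue, right) libraries of each treatment, TRB and TRA. Points are libraries, bars means and error bars SD (n = 3, and n = 2 for control D11); the 3 trametinib D11 libraries, at 29.5% or less in TRB, are the lowest of all.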

How the data were processed

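TCR transcripts were sequenced from total RNA with a QIAGEN QIAseq kit for immune repertoires, per the labels' protocols. The authors' deposited table gives raw counts for every CDR3 amino acid sequence with its V and J segments, separately for TRA and TRB. GRCh38 is the build named in the submitters' processing notes, although it is a human assembly and the samples are from mice. No source used here gives the aligner or clonotype caller. Of 64710 entries, 274 with an unresolved residue (0.0227% of counts) were left out. CDR3 sequences are described by segments, length and residue differences and are not printed.

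Shares, clonality, thinning (mean of 100 draws) and exact two-sided permutation tests over the 20 assignments of 3 of 6 libraries were computed in Python 3.11.15 with numpy 2.4.6 and pandas 2.3.3. Segment counts were tested in edgeR 4.0.16 (R 4.3.3) with filterByExpr, the chain total as library size and all 23 libraries in 8 groups, with Benjamini-Hochberg adjustment over the segments of a kind. DESeq2 1.42.0 was an alternative. The permutation test of 3 against 3 libraries, the thinned clonotype number and the edgeR test were also run on simulated data. Intervals and shares do not cover the sampling of molecules. Segments named are the 5 most used of each kind, the 3 with the smallest unadjusted p and those past the threshold; further segments without overlap were named after their values were seen. Clonotypes named are the largest of each library and the 5 of each chain in the most libraries. Members and lists were chosen with earlier results of these data known.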

Additional observations from a re-analysis of the deposited data

Results flagged for a closer look

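The D11 minus D4 change in the share of the 10 largest clonotypes differed between trametinib and the combination by -28.1 percentage points in TRB and by -20.3 percentage points in TRA. Both stood out because the test of the difference itself gave an unadjusted p under 0.05 (exact permutation of day labels within treatments, p = 0.01 in TRB and p = 0.035 in TRA). After adjustment over the 12 tests neither passed (adjusted p = 0.12 and 0.21). The TRB share was lower at D11 in 3 of 3 trametinib libraries than in any trametinib D4 library, whereas the combination libraries overlapped between the days. Control libraries also did not overlap in TRB, at 45.1% and 45.7% at D11, against 46.2%, 57.7% and 59.0% at D4.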

How the results depend on the processing

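The lower share of the 10 largest clonotypes at D11 kept its direction under estimated molecules and with counts under 20 set to 0. It also did so when thinned to equal counts (chosen after seeing the data). Neither a replicate block nor leaving out 1 library could turn the direction, since pairing keeps the difference of means and the days did not overlap. Without 1 library, the difference ranged from -17.8 to -12.3 points in TRB and from -16.3 to -11.0 points in TRA. The directions that turned were those of clonotype numbers, loop lengths and TRB charge. Log2 clonotypes at equal counts ranged from -0.0633 to 0.603 in TRB and from -0.017 to 0.659 in TRA when 1 library was left out, with the turn without D4 replicate 1 and without D11 replicate 1. TRB CDR3 length turned to -0.076 residues when weighted by counts and ranged from -0.0105 to 0.0947 without 1 library; TRB net charge turned to -0.00898 with counts under 20 set to 0 and ranged from -0.0019 to 0.029; TRA CDR3 length turned to 0.047 with counts under 20 set to 0, where the days did not overlap (exact permutation, p = 0.1), and ranged from -0.032 to 0.016. DESeq2 called 1 TRBV segment (TRBV22) and 1 TRAV segment (TRAV14-1V14D-3/DV8V14N-1V14N-3), and counting each clonotype once called 1 TRBJ segment; the cause was not tested.

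Same-numbered D11 and D4 libraries did not deviate together (correlations of -0.0999, -0.0956 and -0.0077 over 146 segments), so replicate numbers were not taken as pairs. With the replicate block, the TRB share of the 10 largest gave the same -14.3 points (sign flips over 3 pairs, exact p = 0.25, the smallest possible), and 0 segments were called on counts. TRBJ1-6 with each clonotype counted once kept its call under the block (adjusted p = 0.0473). Depth limits what is listed, since counts under 3 do not appear.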
